A study of Mus musculus with 3 samples.

Results

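The genes described here build, fold and clear proteins in the endoplasmic reticulum (ER), the compartment through which every antibody passes before it is secreted. They are 42 genes chosen by symbol from the 32285 gene rows of the count tables, and all 42 were found and had unique molecular identifiers (UMIs, each standing for 1 captured RNA molecule) in every library. The set holds 11 chaperones and their partners, 9 enzymes that form disulfide bonds or turn proline bonds, 8 genes of ER-associated degradation (ERAD), 2 stress transcription factors, and 12 genes of the translocon, the signal peptidase and cargo export. None of them was used to sort cells into stages. The rule names them by symbol and not by a measured value, but they were chosen with earlier results of these data known.

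Single-cell RNA was measured in B cells of the spleen from 3 kinds of mice, 1 library each. All mice had received sheep red blood cells (SRBCs) once, an antigen that starts germinal center (GC) reactions, and were sacrificed at day 10. In 3′RR-*BCL2* mice a randomly integrated transgene put human *BCL2*, which blocks apoptosis, under core elements of the 3′ regulatory region (3′RR) of the immunoglobulin heavy chain locus. In Igκ-*BCL2* mice the human *BCL2* cassette was knocked into the Igκ light chain locus, and the reference was wildtype (WT) mice. The models were hemizygous on a mixed background, and the age and number of mice behind each library are not given in the sources used here. The study's methods describe all 3 sets as B cells enriched by negative magnetic selection, while the sample labels call the cells of both *BCL2* models whole tissue and those of WT sorted. The female-specific RNA *Xist* had 75246 UMIs in the 3′RR-*BCL2* library, 6 in the Igκ-*BCL2* library and 9 in the WT library, and the Y-linked *Ddx3y* had 1, 6848 and 12083 UMIs in the same order, so that sex and genotype cannot be told apart between 3′RR-*BCL2* and WT.

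Cells with at least 800 genes and at most 8% mitochondrial UMIs were kept, which left 6744 of 7579 barcodes in 3′RR-*BCL2*, 6366 of 7034 in Igκ-*BCL2* and 10102 of 11269 in WT, with median depths of 4847 to 5338 UMIs per cell. Upper limits on genes and UMIs were not applied, because they remove plasma cells. Between 15 and 24 barcodes were shared by any pair of libraries. Markers placed cells in 8 stages: transitional, follicular, marginal zone (MZ), interferon (IFN)-activated, activated, non-dividing GC, dividing GC, and plasma-marker cells, which were rich in *Jchain* RNA and held at least 3 of 10 other plasma cell markers. Follicular cells numbered 4403 in 3′RR-*BCL2*, 4653 in Igκ-*BCL2* and 8202 in WT, and plasma-marker cells 14, 24 and 7. In plasma-marker cells the summed plasma cell markers had 33852, 41738 and 44453 UMIs per 1000000 in the 3′RR-*BCL2*, Igκ-*BCL2* and WT libraries, against 409.97, 493 and 382 in follicular cells. Cells with at least 2 UMIs of T cell or macrophage markers, or at least 2 markers of plasmacytoid dendritic cells, had been left out. Low values of these markers were thus set in advance and do not measure purity. Markers of macrophages and red cells were at 0 in plasma-marker cells of all libraries, T cell markers were at 0 apart from 1 gene in Igκ-*BCL2*, and 3 or 4 of 5 myeloid markers were at 0 in each library. The summed myeloid markers nevertheless had 402, 579 and 638 UMIs per 1000000 in plasma-marker cells of 3′RR-*BCL2*, Igκ-*BCL2* and WT, against 204, 274 and 182 in follicular cells. Markers of plasmacytoid dendritic cells had 9.13, 63.2 and 6.86, against 1.67, 2.57 and 1.95, with 2, 3 and 3 of 4 at 0 in plasma-marker cells. The part of these cells' RNA in the plasma-marker values was not tested.

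In the ER, nascent chains enter through the Sec61 channel, lose their signal peptide, and are held by chaperones such as BiP until disulfide bonds and sugars are in place. Chains that fail are pulled back to the cytosol by ERAD and destroyed. When unfolded chains build up, the sensors IRE1, PERK and ATF6 start the unfolded protein response (UPR), which raises many of these genes through the factors XBP1, ATF6 and ATF4. XBP1 is known to be needed for the antibody output of plasma cells.

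Promoters of these genes carry short sequences known as ER stress response elements, to which ATF6 and XBP1 can bind, and they are shown here because they are the feature that a part of the members share in sequence. The search covered 250 bases before to 50 bases after each start site in the RefSeq promoter table (build GRCm38.p6), on both strands, and 34 of the 42 genes had such a window. The first motif (ERSE) is CCAAT, 9 bases of any kind, then CCACG, and the second (ERSE-II) is ATTGG, 1 base of any kind, then CCACG. At least 1 of these motifs was found in 11 of the 34 genes, against 49 of 27025 genes with a window (0.181%). The 49 include the 11. The 42 genes were chosen for the pathway that these elements serve, so the shares describe the set and test nothing. ERSE alone was in 9 of the 34 and in 0.137% of all genes, and ERSE-II in 2 of the 34 and in 0.0444% of all genes. The matched genes were 7 of 9 chaperones with a window, 3 of 7 ERAD genes, 1 of 9 disulfide and proline enzymes, and 0 of 7 translocon genes. Below, capitals mark the motif, and every line runs 5′ to 3′ on the strand of the gene. On *Derl3*, *Creld2* and the second match of *Hsp90b1* the motif lies on the opposite strand, so that it reads CGTGG, 9 bases, then ATTGG.
Hspa5 (BiP, chr2:34772020-34772048, + strand): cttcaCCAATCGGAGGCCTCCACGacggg
Hsp90b1, first match (chr10:86705618-86705676, − strand): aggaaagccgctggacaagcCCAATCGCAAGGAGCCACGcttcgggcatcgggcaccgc
Hsp90b1, second match (chr10:86705513-86705571, − strand): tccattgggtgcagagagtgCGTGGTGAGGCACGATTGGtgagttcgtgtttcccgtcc
Creld2 (chr15:88819500-88819558, + strand): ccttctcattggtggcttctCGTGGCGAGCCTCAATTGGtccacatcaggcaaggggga
Canx (chr11:50325780-50325838, − strand): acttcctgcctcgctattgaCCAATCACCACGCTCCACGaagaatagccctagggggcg
Derl3 (chr10:75893222-75893280, + strand): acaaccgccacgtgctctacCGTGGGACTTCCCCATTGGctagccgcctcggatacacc
Syvn1 (chr19:6046512-6046570, + strand): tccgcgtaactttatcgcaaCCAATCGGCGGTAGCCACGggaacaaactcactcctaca
Herpud1, ERSE-II (chr8:94386357-94386407, + strand): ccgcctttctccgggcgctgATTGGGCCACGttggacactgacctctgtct

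These 7 genes span the range of the plasma cell values given below, with *Derl3* at the top and *Canx* near the bottom. A match in these windows describes the sequence and does not show that a factor binds there. An XBP1 element (UPRE, TGACGTGG) was found in 2 members, *Txndc5* and *Txndc11*, and in 0.714% of all genes. The element of amino acid stress that ATF4 can bind (CARE, TGATGNAAT) was in 0 of the 34 members and in 1.08% of all genes.

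The first question was how the 42 genes differ between plasma-marker and follicular cells. In plasma-marker cells they made up 3.04% of non-immunoglobulin UMIs in 3′RR-*BCL2*, 3.36% in Igκ-*BCL2* and 3.59% in WT, against 0.550%, 0.524% and 0.489% in follicular cells of the same libraries. In all libraries the share was thus several times higher than in follicular cells, and the highest share of any other stage was 0.670%, in activated cells of Igκ-*BCL2*. Immunoglobulin genes were left out of this share because they took 32.3%, 43.5% and 41.3% of plasma-marker UMIs, against 1.75%, 1.63% and 1.59% of follicular UMIs, and so dilute all other genes. UMIs were summed per library and stage and compared in edgeR (quasi-likelihood test, library as a block, Benjamini-Hochberg adjustment over 9381 genes), where the libraries serve as replicates of a stage and differ in genotype. Of the 42 genes, 41 rose at an adjusted p under 0.05 and 0 fell, while 14.3% of all genes tested rose and 13.9% fell. The median log2 fold change of the 42 was 2.78, against −0.13 over all genes tested, and 40 of the 41 had the same sign in all 3 libraries.

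**Figure D1:**
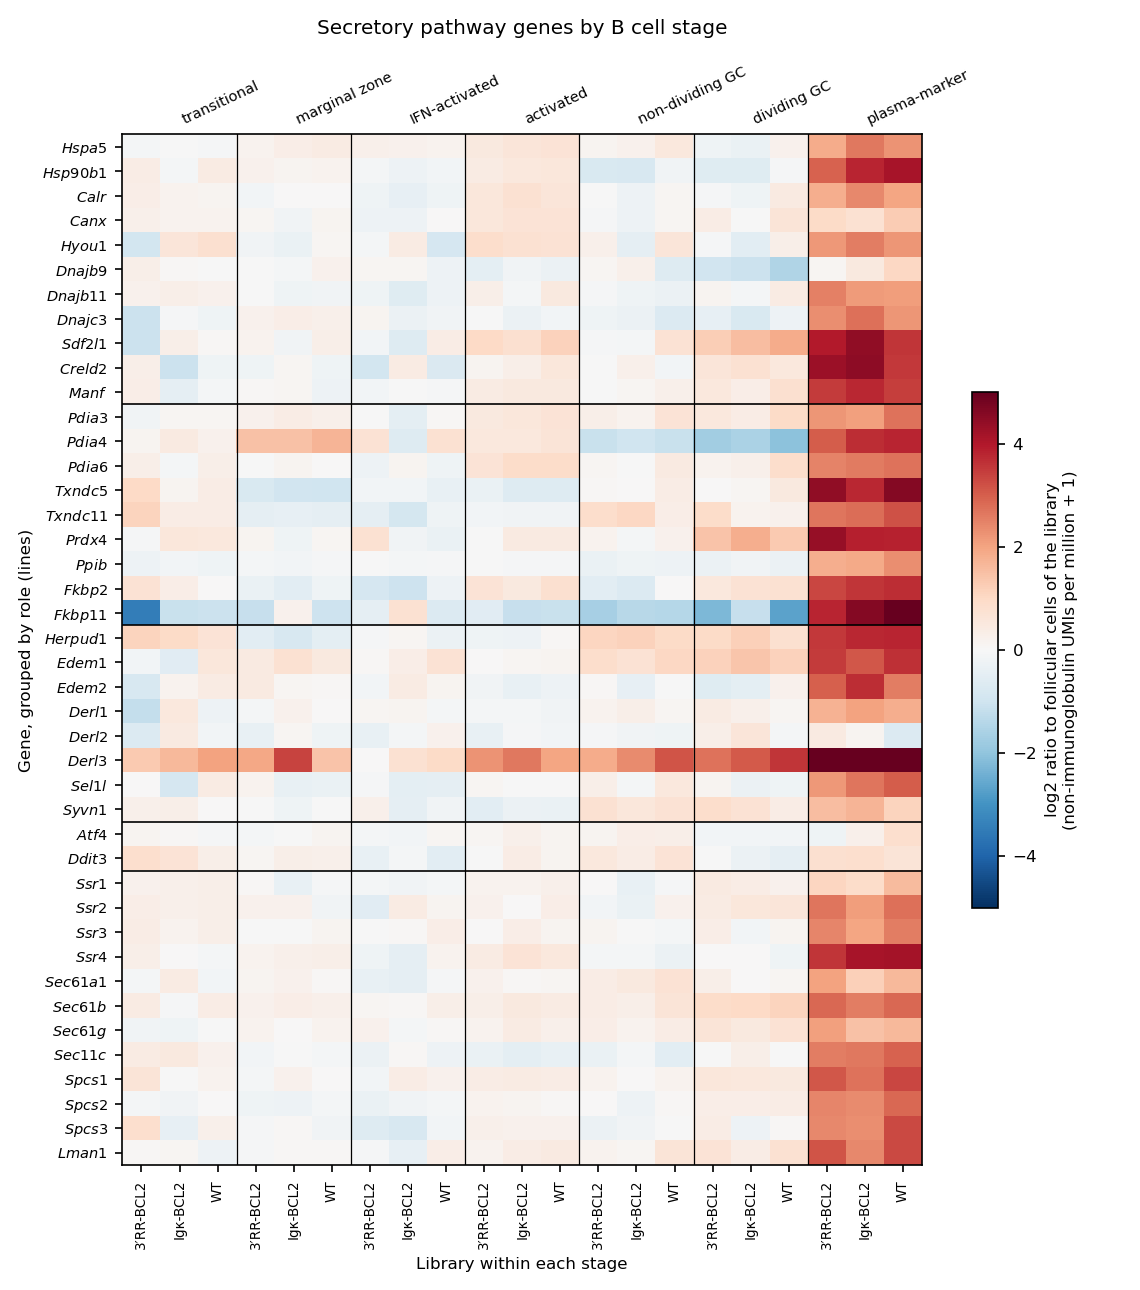
Log2 ratio of non-immunoglobulin UMIs per 1000000 (1 added) to follicular cells of the same library, for the 42 genes (vertical axis, by role) in 7 stages of the 3 libraries (horizontal axis). Red is higher than in follicular cells, blue is lower, and colors stop at 5, which *Derl3* passed in plasma-marker cells. The plasma-marker columns are red in nearly every row, and *Pdia4*, *Derl3* and *Fkbp11* stand out in other stages.

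All 11 chaperones rose, with a median log2 fold change of 2.61. *Hspa5* encodes BiP, the ER Hsp70 that binds unfolded chains and keeps the UPR sensors quiet. It had 1829, 2207 and 1469 UMIs per 1000000 in plasma-marker cells of the 3′RR-*BCL2*, Igκ-*BCL2* and WT libraries, against 735, 624 and 517 in follicular cells, and its log2 fold change was 2.44 ± 0.15 (SE). *Hsp90b1* (GRP94), the ER Hsp90, had 2131, 3097 and 3171 UMIs per 1000000 in plasma-marker cells, against 404, 383 and 308 in follicular cells, a log2 fold change of 3.82 ± 0.18. The highest plasma-marker values of *Hsp90b1* were thus in the libraries with the lower follicular ones. *Creld2*, an ER stress gene with disulfide isomerase activity, had the largest change of the chaperone group, 4.48 ± 0.17 on the log2 scale (adjusted p = 3.59e-21). It had 317, 281 and 151 UMIs per 1000000 in plasma-marker cells, against 22.5, 21.2 and 20.7 in follicular cells. *Sdf2l1*, a partner of the cochaperone ERdj3, followed at 4.37 ± 0.18 and *Manf*, a secreted protein of stressed cells, at 3.79 ± 0.14. The lectin chaperone *Canx* (1.13 ± 0.15) and the cochaperone *Dnajb9* (ERdj4) stood at the low end. *Dnajb9* had 179.6, 206 and 254 UMIs per 1000000 in plasma-marker cells, against 243, 255 and 207 in follicular cells. Its fitted log2 fold change was 0.63 ± 0.19 (adjusted p = 0.0108), and the sign came from the correction for the immunoglobulin share, since per 1000000 of all UMIs it was lower in both models. Under the study's upper limits on genes and UMIs the log2 fold change was −0.13, and without the Igκ-*BCL2* library its adjusted p was 0.155.

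All 9 disulfide and proline enzymes rose, with the highest median of the groups (3.68). *Fkbp11*, a prolyl isomerase of secretory cells, changed most, by 4.96 ± 0.27 on the log2 scale (adjusted p = 1.45e-16). It had 103, 122 and 309 UMIs per 1000000 in plasma-marker cells of 3′RR-*BCL2*, Igκ-*BCL2* and WT, against 9.79, 7.95 and 9.50 in follicular cells. Plasma-marker cells of every library lay above their follicular cells, and the WT cells lay above those of both models. *Txndc5*, a thioredoxin-like isomerase, had 1650, 833 and 1524 UMIs per 1000000, against 108, 106 and 106 in follicular cells, a log2 fold change of 4.43 ± 0.15. *Prdx4*, which turns hydrogen peroxide into disulfide bonds, followed at 4.29 ± 0.18. The smallest change was that of *Ppib* (cyclophilin B), at 2.15 ± 0.11, with 688, 534 and 865 UMIs per 1000000 in plasma-marker cells, against 284, 249 and 289.98 in follicular cells. The protein disulfide isomerases *Pdia3*, *Pdia4* and *Pdia6* rose by 2.45 ± 0.14, 3.68 ± 0.16 and 2.79 ± 0.15.

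**Figure D2:**
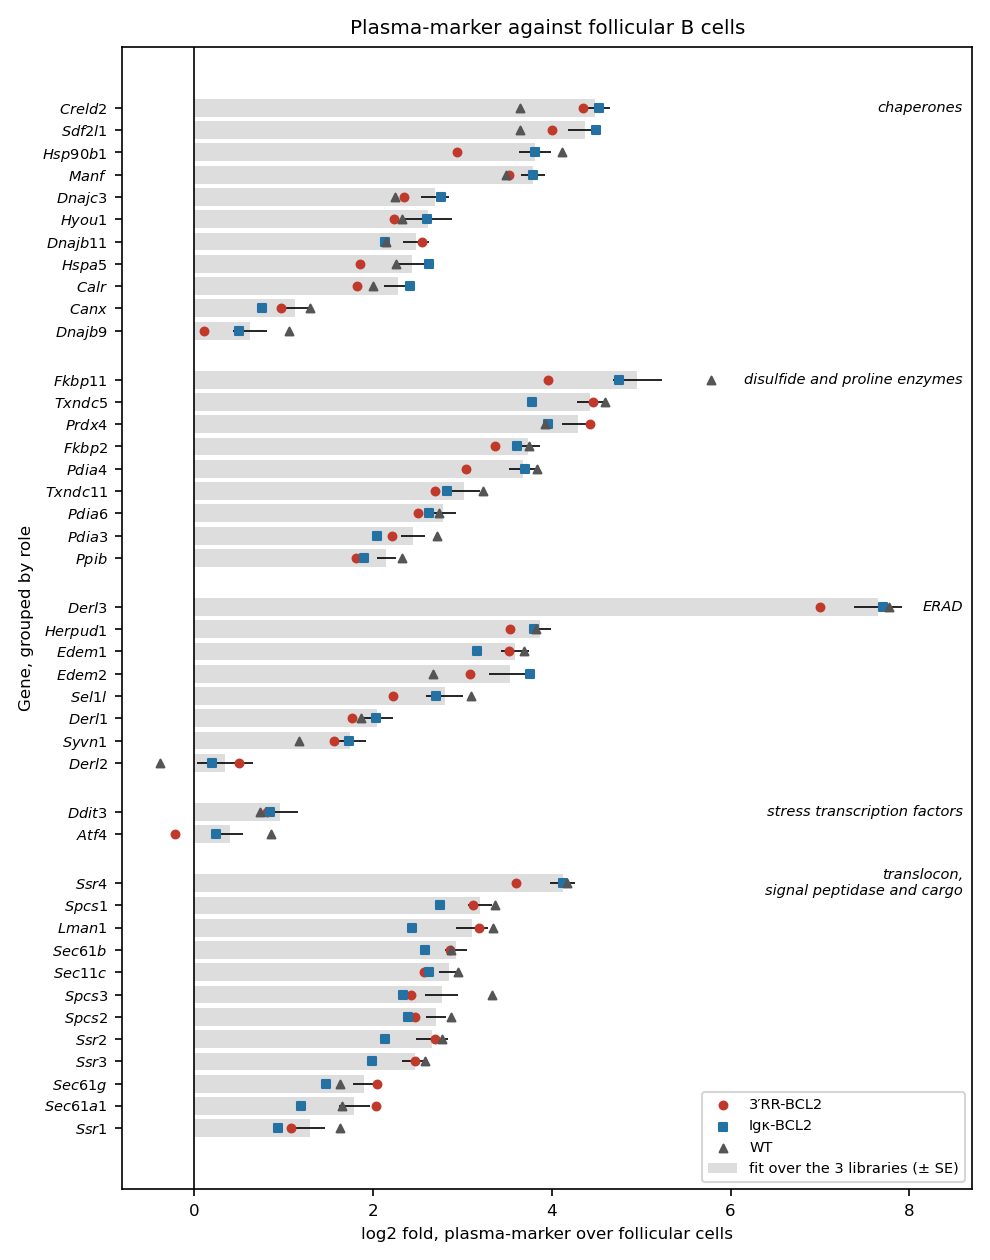
Log2 fold of plasma-marker over follicular cells (horizontal axis) for the 42 genes (vertical axis, by role). Bars are the edgeR fit with an SE derived from the test's F statistic, and points are the single libraries per 1000000 of non-immunoglobulin UMIs. For most genes the 3 points lie close together beside the distance to 0. *Derl2*, *Atf4*, *Dnajb9* and *Fkbp11* are among the exceptions, and *Derl3* reaches 7.65.

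Of the ERAD genes 7 of 8 rose. *Derl3*, a derlin of the channel through which chains leave the ER, had the largest change of all 42 genes, 7.65 ± 0.26 on the log2 scale (adjusted p = 3.35e-22). It had 195, 295.5 and 247 UMIs per 1000000 in plasma-marker cells, against 2.20, 2.45 and 1.90 in follicular cells, and rested on 64, 145 and 36 UMIs, against 54, 60 and 85. *Derl3* RNA was found in 13 of 14 plasma-marker cells of 3′RR-*BCL2*, 19 of 24 of Igκ-*BCL2* and 7 of 7 of WT. In follicular cells, which have median depths of 4740 to 5023 UMIs against 15832 to 25022 UMIs in plasma-marker cells, 1.09%, 1.03% and 0.878% of cells held a *Derl3* UMI. The paralog *Derl2* was the only member without a call, with a log2 fold change of 0.35 ± 0.31 (adjusted p = 0.438). It had 36.5, 26.5 and 13.7 UMIs per 1000000 in plasma-marker cells, from 12, 13 and 2 UMIs, against 38.8, 41.6 and 37.5 in follicular cells. The third derlin, *Derl1*, rose by 2.04 ± 0.18. *Herpud1*, which brings the ERAD parts together, rose by 3.87 ± 0.12, *Edem1* and *Edem2*, which trim sugars of failing chains, by 3.59 ± 0.16 and 3.54 ± 0.24, and *Sel1l* and *Syvn1*, which form the ubiquitin ligase complex, by 2.80 ± 0.20 and 1.75 ± 0.17.

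Both stress transcription factors passed the test with small changes. *Ddit3* (CHOP), a factor of prolonged stress, rose by 0.97 ± 0.19 on the log2 scale (adjusted p = 0.000194), with 109.6, 87.6 and 61.8 UMIs per 1000000 in plasma-marker cells, against 91.1, 85.5 and 65.6 in follicular cells. *Atf4*, the factor made when PERK or amino acid sensors slow translation, had a fitted log2 fold change of 0.41 ± 0.14 (adjusted p = 0.0305). Its levels were 219, 261 and 336 UMIs per 1000000 in plasma-marker cells, against 370.3, 384 and 314 in follicular cells. Leaving out immunoglobulin UMIs, the log2 ratio of *Atf4* was −0.21 in 3′RR-*BCL2*, 0.25 in Igκ-*BCL2* and 0.86 in WT, so that the libraries did not share a direction, and the call was lost without WT (adjusted p = 0.313) or without Igκ-*BCL2* (adjusted p = 0.278). The normalization of the fit raised the plasma-marker folds by 0.68 to 1.05 on the log2 scale over those per 1000000 of all UMIs, of which 0.54 to 0.80 came from the immunoglobulin share alone. Scaled to all UMIs, 39 of 42 genes were higher in plasma-marker than in follicular cells in 3′RR-*BCL2*, 38 in Igκ-*BCL2* and 40 in WT, and the exceptions were *Derl2*, *Atf4*, *Dnajb9*, *Canx* and *Ddit3*.

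All 12 genes of the translocon, signal peptidase and cargo group rose (median 2.74). *Ssr4*, a subunit of the translocon-associated protein complex that helps signal sequences open the channel, led them at 4.12 ± 0.14 on the log2 scale (adjusted p = 1.41e-22). It had 1111, 1223 and 1496 UMIs per 1000000 in plasma-marker cells, against 133, 122 and 140.02 in follicular cells. *Ssr1*, another subunit of the complex, changed least, by 1.29 ± 0.17, with 103, 93.7 and 137 UMIs per 1000000 against 71.6, 85.7 and 76.1. Members of 1 complex thus differed: *Ssr2* and *Ssr3* lay between them at 2.66 ± 0.18 and 2.47 ± 0.14. Of the Sec61 channel, the small subunits *Sec61b* and *Sec61g* rose by 2.93 ± 0.12 and 1.91 ± 0.13 and the pore *Sec61a1* by 1.79 ± 0.18. The signal peptidase genes *Sec11c*, *Spcs1*, *Spcs2* and *Spcs3* rose by 2.71 to 3.20, and *Lman1*, the lectin that carries cargo to the Golgi, by 3.11 ± 0.18.

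The genes with an ERSE or ERSE-II shown above did not stand apart in plasma-marker cells. The 11 with a motif had a median log2 fold change of 2.69 and a range of 1.13 to 7.65, and the 23 with a window and no motif had a median of 2.93 and a range of 0.35 to 4.96. *Derl3*, *Creld2* and *Hsp90b1* were near the top of the first group, and *Canx* and *Syvn1* at its low end. In activated cells, described below, the medians were 0.53 with a motif and 0.19 without. Chaperones hold 7 of the 11 and had a median of 0.53 there, so that motif and role cannot be told apart. In the other contrasts the medians with and without a motif were 0.05 and 0.08 (non-dividing GC) and 0.26 and 0.20 (dividing GC). They were 0.08 and 0.10 in MZ, 0.08 and 0.10 in transitional, and −0.06 and 0.03 in IFN-activated cells.

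Around these genes, other parts of the secretory pathway were higher in plasma-marker cells too. Of the UPR sensors and factors 7 rose and 1 fell of 13 tested. *Xbp1* rose by 4.89 ± 0.13 on the log2 scale (adjusted p = 5.76e-25), with 773, 723 and 1057 UMIs per 1000000 in plasma-marker cells, against 56.5, 48.4 and 46.3 in follicular cells. *Ern1* (IRE1), which splices *Xbp1* RNA, rose by 4.08 ± 0.47 from only 5, 18 and 5 UMIs, and *Atf6* by 1.31 ± 0.20. *Eif2ak3* (PERK) did not pass the test, with a log2 fold change of 0.11 ± 0.21 (adjusted p = 0.756), and *Ppp1r15a*, which lifts the translation block set by PERK, fell by 0.54 (SE 0.16). The transcription factor *Creb3l2*, known from secretory cells, rose by 4.79 ± 0.27. *Asns*, an amino acid gene and target of ATF4, had a log2 fold change of 6.44 ± 0.81 that rested on 14, 1 and 3 UMIs.

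Of ERAD and ubiquitin genes outside the 42, 9 rose and 0 fell of 16 tested, led by *Selenos* at 2.44 ± 0.12. Of translocation and signal recognition genes 13 of 14 rose, led by *Tram2* (3.52 ± 0.27), of N-glycosylation genes 13 of 16, led by *Ddost* (2.92 ± 0.19), and of ER to Golgi transport genes 18 of 19, led by the coat gene *Sec24d* (5.73 ± 0.48). Of other ER folding genes 9 rose and 1 fell of 13 tested, with *Selenom* at 5.84 ± 0.57 and *Mzb1*, a BiP partner of B cells, at 4.11 ± 0.15. In a heat shock list kept for comparison, which holds chaperones of the cytosol, the mitochondrial chaperonins *Hspd1* and *Hspe1* and the factor *Hsf1*, 0 rose, 4 fell and 7 did not pass the test of 11 tested. The genes that fell were *Hspa1b* by 1.18 on the log2 scale, *Hsf1* by 1.08, *Hspd1* by 1.01 and *Hsp90aa1* by 0.80.

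The plasma-marker cells were few, and they differed among themselves. The 42 genes took a median of 2.40% of a cell's non-immunoglobulin UMIs in 3′RR-*BCL2* (0.809 to 6.57%, 14 cells), 2.22% in Igκ-*BCL2* (0.783 to 10.7%, 24 cells) and 3.61% in WT (2.30 to 6.34%, 7 cells). In follicular cells the medians were 0.527%, 0.501% and 0.469%. The lowest plasma-marker cells of both *BCL2* libraries lay below the 95th percentile of follicular cells (0.882% in 3′RR-*BCL2* and 0.856% in the Igκ-*BCL2* library), and those of WT lay above it (0.784%). A single cell held 17.7% of the 42 genes' plasma-marker UMIs in 3′RR-*BCL2*, 16.1% in Igκ-*BCL2* and 34.4% in WT. *Hspa5* spanned 311 to 5778 UMIs per 1000000 of non-immunoglobulin UMIs in the 3′RR-*BCL2* cells, 468 to 13918 in the Igκ-*BCL2* cells and 657 to 6435 in the WT cells.

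**Figure D3:**
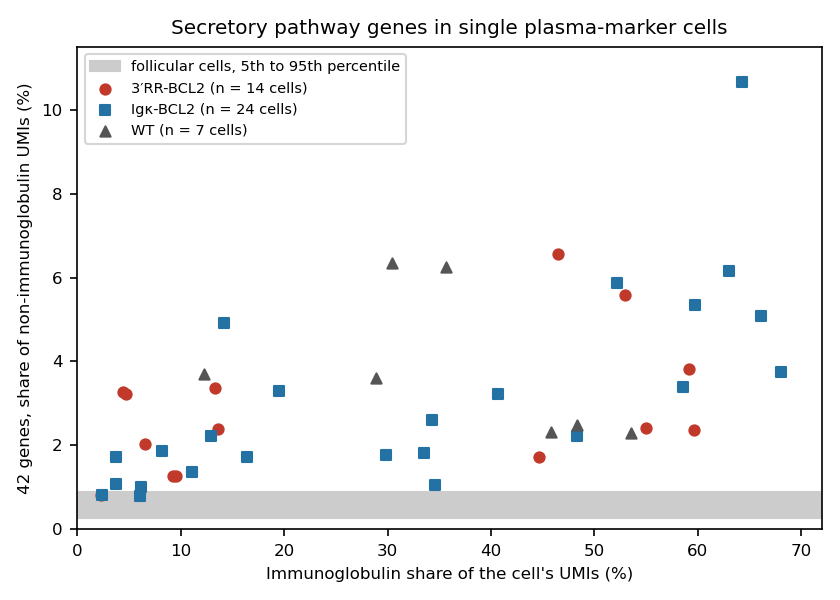
Share of non-immunoglobulin UMIs taken by the 42 genes (vertical axis, %) against the immunoglobulin share of all UMIs (horizontal axis, %) in each of the 45 plasma-marker cells, with the 5th to 95th percentile of follicular cells as a gray band. In Igκ-*BCL2* cells rich in immunoglobulin RNA tend to lie higher, and the 7 WT cells show no such order. Immunoglobulin UMIs enter both axes.

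As a description over cells of 1 library, the Spearman correlation between the 42-gene share and the immunoglobulin share was 0.42 in 3′RR-*BCL2* (14 cells), 0.79 in Igκ-*BCL2* (24 cells) and −0.68 in WT (7 cells). With *Xbp1* it was 0.15, 0.22 and 0.04, and with the cell's UMI total, which the shares have in common, it was 0.70, 0.65 and −0.50. Immunoglobulin UMIs enter both shares, since the total of the 42-gene share leaves them out. At a fixed share of all UMIs, the 42-gene share thus rises with the immunoglobulin share by arithmetic. The part of this in the correlations was not tested. Some of the plasma-marker cells also held GC markers: the summed GC markers had 612, 187 and 124 UMIs per 1000000 in plasma-marker cells of 3′RR-*BCL2*, Igκ-*BCL2* and WT, and 7 of 14, 5 of 24 and 0 of 7 cells held at least 4 of 9. Without these cells, a comparison chosen after seeing the data, 41 of the 42 genes still rose and the median log2 fold change was 2.94. Their 42-gene share had a median of 2.40% in 3′RR-*BCL2* and 1.71% in the Igκ-*BCL2* library, against 2.40% and 3.21% in the cells below that limit. Under the study's upper limits on genes and UMIs only 6, 14 and 4 plasma-marker cells were left, and 39 of 42 genes rose with a median of 1.97.

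Activated cells, which were defined by *Myc* and genes of ribosome building, showed a smaller change of another make-up. Of the 42 genes 19 rose and 4 fell against follicular cells (17.3% of all genes tested rose and 17.2% fell), with a median log2 fold change of 0.25, against −0.05 over all genes. Chaperones led: 9 of 11 rose, and *Dnajb9* and *Dnajc3* did not pass the test. *Sdf2l1* changed most among them, by 1.06 ± 0.16 (adjusted p = 2.54e-06), with 60.9, 40.6 and 52.6 UMIs per 1000000 in activated cells of 3′RR-*BCL2*, Igκ-*BCL2* and WT, against 29.9, 23.0 and 23.3 in follicular cells. *Hspa5* had 1039, 963 and 839 UMIs per 1000000, against 735, 624 and 517, a log2 fold change of 0.63 ± 0.14. *Pdia6* had 201, 241 and 204 UMIs per 1000000 in activated cells, against 125, 125 and 108 in follicular cells, a log2 fold change of 0.88 ± 0.12.

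The activated cells of each library lay above its follicular cells for these genes. The genes that fell were *Fkbp11*, by 1.08 on the log2 scale (adjusted p = 0.0173), *Txndc5* by 0.52, *Sec11c* by 0.36 and *Syvn1* by 0.34, all of which rose in plasma-marker cells. The call of *Fkbp11* was lost without WT (adjusted p = 0.172) or without Igκ-*BCL2* (0.0618), and that of *Sec11c* without 3′RR-*BCL2* (0.0792) or without Igκ-*BCL2* (0.0569). *Derl3* rose by 2.71 ± 0.31 from 25, 27 and 37 UMIs in 15 of 173, 16 of 129 and 21 of 378 cells. Outside the 42, 8 of 16 N-glycosylation genes rose and 0 fell, among them *Mogs* (0.88 ± 0.16) and *Rpn1* (0.75 ± 0.12), while *Eif2ak3* fell by 0.53 (SE 0.12) and *Xbp1* had a log2 fold change of 0.22 ± 0.13 (adjusted p = 0.201). The edgeR test and adjustment were the same throughout.

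In GC cells the question was whether the module is already higher in cells that fall short of the limits for plasma-marker cells. Non-dividing GC cells were not free of plasma cell markers. Scaled as in the description of the stages, the summed markers were at 1139, 1217 and 948 in 3′RR-*BCL2*, Igκ-*BCL2* and WT. In follicular cells of the same libraries they were at 409.97, 493 and 382. Non-dividing GC cells numbered 556 in 3′RR-*BCL2*, 269 in Igκ-*BCL2* and 56 in WT, and the 42 genes took 0.581%, 0.549% and 0.568% of their non-immunoglobulin UMIs. Of the 42 genes 9 rose and 7 fell against follicular cells, while 22.1% of all genes tested rose and 19.6% fell, so that neither share of the 42 exceeded that of all genes. The median was 0.07, against −0.0027 over all genes. The counts differed by role, since 4 of 8 ERAD genes rose and 0 fell, and 0 of 11 chaperones rose and 2 fell.

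*Herpud1* had 254, 245 and 215 UMIs per 1000000 in non-dividing GC cells of 3′RR-*BCL2*, Igκ-*BCL2* and WT, against 119.8, 109 and 109.5 in follicular cells, and rose by 1.06 ± 0.11 on the log2 scale (adjusted p = 1.38e-09). *Edem1* rose by 0.86 ± 0.12, *Syvn1* by 0.66 ± 0.11 and *Txndc11*, a thioredoxin-like partner of the EDEM proteins, by 0.82 ± 0.13. *Derl3* had 10.7, 16.8 and 24.7 UMIs per 1000000, against 2.20, 2.45 and 1.90, a log2 fold change of 2.71 ± 0.29, and 10 of its 17 UMIs in WT came from 1 cell. It was found in 6.65%, 10.04% and 10.7% of the GC cells, at median depths of 8209 to 11015 UMIs.

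*Fkbp11* and *Pdia4* moved the other way. *Fkbp11* had 2.43, 2.46 and 2.90 UMIs per 1000000 in non-dividing GC cells, from 12, 6 and 2 UMIs, against 9.79, 7.95 and 9.50 in follicular cells, and fell by 1.81 on the log2 scale (SE 0.39, adjusted p = 0.000262). *Pdia4* had 51.1, 42.2 and 45.0 UMIs per 1000000, against 112, 83.8 and 97.1, and fell by 1.08 (SE 0.17). *Hsp90b1* had 240.2, 218 and 270.1 UMIs per 1000000, against 404, 383 and 308, and fell by 0.62 (SE 0.17). All 3 genes were lower in GC than in follicular cells of every library, and all 3 were among the genes that rose in plasma-marker cells. Smaller decreases were those of *Fkbp2* (−0.50), *Dnajc3* (−0.32), *Sec11c* (−0.31) and *Ppib* (−0.30).

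Outside the 42 the sensors moved apart in GC cells. *Xbp1* rose by 0.56 ± 0.12 and *Eif2ak3* by 0.30 ± 0.11, while *Atf6* fell by 0.42 (SE 0.12) and *Creb3l2* by 1.10 (SE 0.33). *Asns* rose by 4.50 ± 0.48, *Erp44*, which returns immature antibody from the Golgi, by 1.38 ± 0.10, *Ube2j1*, an ERAD ubiquitin-conjugating enzyme, by 1.13 ± 0.10, and *Mzb1* by 1.11 ± 0.14. Their lists did not rise as a whole. Of ER to Golgi transport genes 2 rose and 6 fell of 19 tested, and of N-glycosylation genes 3 and 4 of 16. Other ER folding genes gave 3 and 3 of 13, translocation and signal recognition 1 and 3 of 14, and ERAD and ubiquitin 2 and 1 of 16. Over all genes tested 22.1% rose and 19.6% fell. In a split chosen after seeing the data, non-dividing GC cells with at least 5 *Jchain* UMIs per 10000 (254, 115 and 22 cells in 3′RR-*BCL2*, Igκ-*BCL2* and WT) were set against those with no *Jchain* UMI (82, 43 and 8 cells), and the cells between these limits were left out. Median depths were 8062, 8622 and 9460 UMIs, against 7120, 6162 and 8752, and the part of depth was not tested. The median log2 ratio of the 42 genes was 0.20, 0.08 and 0.31, against −0.04, −0.02 and 0.08 over all genes, with no test.

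Dividing GC cells, 163, 28 and 68 in the 3 libraries, were compared with non-dividing GC cells. Of the 42 genes 21 rose and 4 fell (23.2% of all genes tested rose and 22.6% fell), with a median log2 fold change of 0.30, against −0.05 over all genes. In the translocon group 9 of 12 rose and 0 fell. *Sec61b* had 400.4, 379 and 436 UMIs per 1000000 in dividing GC cells of 3′RR-*BCL2*, Igκ-*BCL2* and WT, against 267, 232 and 319.5 in non-dividing ones, and rose by 0.66 ± 0.12. *Sdf2l1* had 72.1, 69.3 and 88.3 UMIs per 1000000, against 28.6, 21.7 and 39.2, a log2 fold change of 1.55 ± 0.19 (adjusted p = 5.5e-08). *Prdx4* had 50.8, 70.8 and 56.3 UMIs per 1000000, against 20.7, 18.01 and 26.1, and rose by 1.48 ± 0.18.

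*Fkbp2* rose by 1.21 ± 0.16 and *Derl3* by 1.03 ± 0.29. The genes that fell included both stress factors, *Ddit3* by 0.61 (SE 0.14) and *Atf4* by 0.32 (SE 0.12), with *Dnajb9* by 1.08 (SE 0.16) and *Pdia4* by 0.68 (SE 0.22), whose adjusted p was 0.0822 without WT and 0.0528 without 3′RR-*BCL2*. *Dnajb9* had 124.9, 122 and 73.6 UMIs per 1000000 in dividing GC cells, against 259.9, 308 and 134 in non-dividing ones. *Ppp1r15a* fell by 0.96 (SE 0.14), *Eif2ak3* by 0.75 (SE 0.13) and *Atf6* by 0.60 (SE 0.17), while *Xbp1* rose by 0.41 ± 0.14. Over the UPR sensors and factors 1 rose, 4 fell and 8 did not pass the test of 13 tested. Dividing GC cells had median depths of 15077 to 17245 UMIs, against 8209 to 11015 in non-dividing ones, and the part of depth was not tested in this fit. Under the study's upper limits on genes and UMIs, which remove deep cells, 5 of the 42 genes rose and 3 fell, *Ddit3* no longer passed the test (adjusted p = 0.0801), and without the 3′RR-*BCL2* library 13 rose and 2 fell.

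In the other stages fewer genes moved. In MZ cells 5 of the 42 genes rose and 3 fell against follicular cells (10.1% and 8.76% of all genes tested). *Pdia4*, a disulfide isomerase of immunoglobulin folding, had 312, 236 and 315.5 UMIs per 1000000 in MZ cells of 3′RR-*BCL2*, Igκ-*BCL2* and WT, against 112, 83.8 and 97.1 in follicular cells, and rose by 1.63 ± 0.14 on the log2 scale (adjusted p = 1.31e-10). It was found in 89.3%, 72.5% and 88.7% of MZ cells, against 39.2%, 29.7% and 35.1% of follicular cells, whose median depths were 9444 to 10132 and 4740 to 5023 UMIs. *Derl3* rose by 2.62 ± 0.31 and *Edem1* by 0.57 ± 0.13. *Txndc5* had 63.8, 53.7 and 53.2 UMIs per 1000000 in MZ cells, against 108, 106 and 106, and fell by 0.88 (SE 0.15), and *Herpud1* fell by 0.49 (SE 0.12). *Fkbp11* fell by 0.95 (SE 0.34) in the fit, but its ratio was 0.33 in Igκ-*BCL2* on 7 UMIs, and its adjusted p was 0.34 without WT and 0.319 without 3′RR-*BCL2*. Without 3′RR-*BCL2* the adjusted p of *Herpud1* was 0.0524. *Mzb1* rose by 0.84 ± 0.14.

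In transitional cells 2 genes rose and 0 fell (2.16% and 2.12% of all genes tested). *Herpud1* rose by 0.78 ± 0.13 (adjusted p = 0.00022), and *Derl3* rose by 2.11 ± 0.61 from 2, 3 and 11 UMIs, a call that was lost when any 1 library was left out. In IFN-activated cells 1 gene rose and 0 fell (3.49% and 0.309% of all genes tested). It was *Pdia4*, with a log2 fold change of 0.62 ± 0.17 (adjusted p = 0.0222), whose ratios were 0.74 in 3′RR-*BCL2*, −0.64 in Igκ-*BCL2* and 0.78 in WT, and which lost its call without 3′RR-*BCL2* or without WT.

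*Pdia4* and *Fkbp11* thus had patterns unlike those of the group. *Pdia4* was highest in plasma-marker cells (633, 626 and 824 UMIs per 1000000), followed by MZ, activated, follicular, non-dividing GC and dividing GC cells, with 33.4, 27.7 and 23.0 UMIs per 1000000 in the last. Among these 6 stages that order held in each library, although the distance from non-dividing to dividing GC cells rested on 252, 103 and 31 against 102, 18 and 36 UMIs. *Fkbp11* was highest in plasma-marker cells. Its values in activated, non-dividing GC and dividing GC cells were below those of follicular cells in every library, but they rested on few UMIs. In 3′RR-*BCL2*, Igκ-*BCL2* and WT these were 11, 4 and 14 in activated, 12, 6 and 2 in non-dividing GC, and 4, 2 and 1 in dividing GC cells. *Derl3* was lowest in follicular cells and higher in every other stage with at least 10 UMIs.

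The second question was whether *BCL2* expression changes the module within a stage. With 1 library per genotype there is no test, and values are given as log2 ratios of UMIs per 1000000 with 95% exact intervals that cover counting error only. A gene was counted as past the fold at a ratio of 1.5 in either direction. In follicular cells 0 of the 42 genes passed it in 3′RR-*BCL2* over WT, where 4.12% of all genes were higher and 5.66% lower, and 0 of 42 in Igκ-*BCL2* over WT, where 9.57% were higher and 4.96% lower. These shares take in all genes from 20 UMIs up, where counting error alone can pass the fold. The 42 held from 54 and 85 UMIs (*Derl3*) to 18016 and 23092 (*Hspa5*) in 3′RR-*BCL2* and WT, so the shares are not at like counts. The median log2 ratio of the 42 was 0.05 in 3′RR-*BCL2* and 0.05 in the Igκ-*BCL2* library, against −0.07 and 0.02 over all genes. The ratios of single genes lay between −0.31 and 0.51 in 3′RR-*BCL2* and between −0.25 and 0.38 in Igκ-*BCL2*. Depth made the counting error of most of them small, but differences between mice of 1 genotype are not covered.

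Within that range 11 of 11 chaperones were above 0 in 3′RR-*BCL2* (median 0.15), where 4585 of 12982 genes were, and 9 of 11 in Igκ-*BCL2* (median 0.17), where 7051 of 13134 genes were. *Hspa5* had 735 UMIs per 1000000 in 3′RR-*BCL2* and 624 in the Igκ-*BCL2* library, against 517 in WT, and its log2 ratio in 3′RR-*BCL2* was 0.51 (0.48 to 0.54). *Hsp90b1* followed at 0.39 in 3′RR-*BCL2* and 0.32 in the Igκ-*BCL2* library. The stress factor *Ddit3* was at 0.48 and 0.38, with 91.1 and 85.5 UMIs per 1000000 against 65.6 in WT. *Derl3* was at 0.36 in Igκ-*BCL2* on 60 against 85 UMIs. The lowest ratios in 3′RR-*BCL2* were those of *Prdx4* (−0.31), *Sel1l* (−0.19) and *Spcs3* (−0.14), and in Igκ-*BCL2* those of *Fkbp11* (−0.25), *Sec11c* (−0.25) and *Prdx4* (−0.22).

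The heat shock list had larger ratios between the same cells. Of its 12 genes, *Hspd1* and *Hspe1* among them, 10 were past 1.5-fold higher in 3′RR-*BCL2* and 10 in the Igκ-*BCL2* library, with median log2 ratios of 1.06 and 1.13, and *Hspa1a*, whose sequence is nearly that of *Hspa1b* so that reads may be shared, stood at 6.20 and 7.19. *Hspa1b* had 918 UMIs per 1000000 in 3′RR-*BCL2* and 2479 in the Igκ-*BCL2* library, against 20.04 in WT follicular cells. Their part in the ratios of the ER chaperones was not tested. In plasma-marker cells *Dnajb1*, another of the 12, was also higher in both models, at 2.23 (0.93 to 4.32) in the 3′RR-*BCL2* library and 3.23 (2.01 to 5.29) in the Igκ-*BCL2* library, on 47 and 142 UMIs against 4 in WT.

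**Figure D4:**
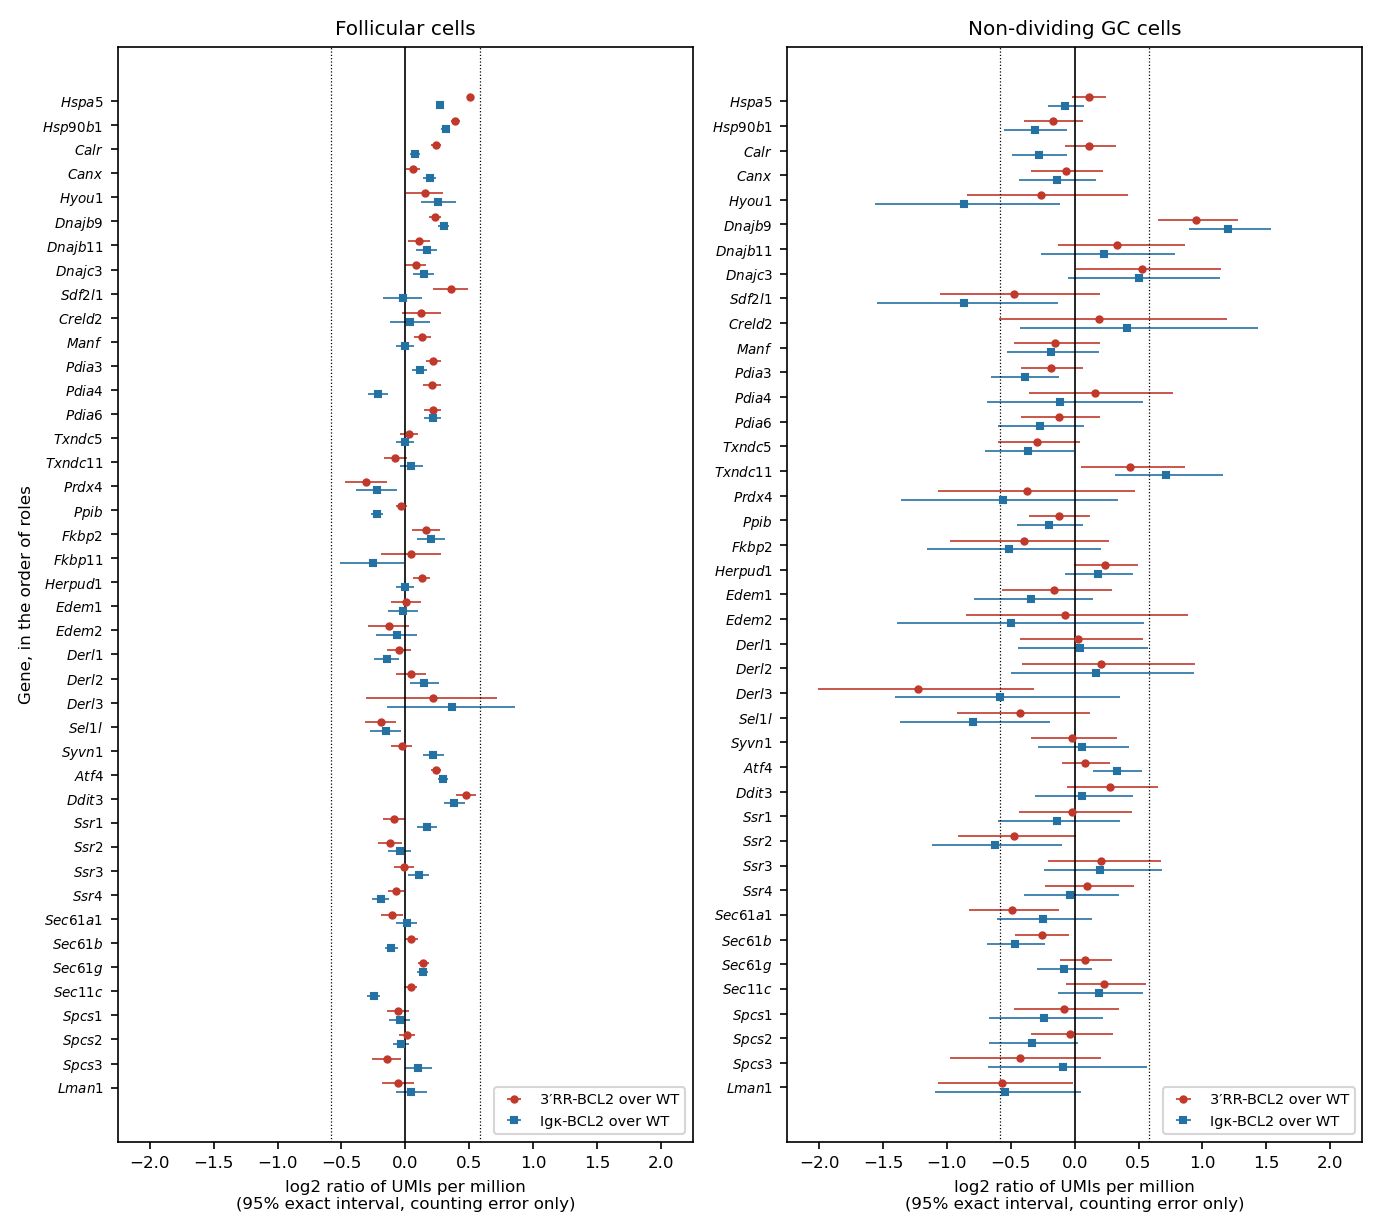
Log2 ratio of UMIs per 1000000 in 3′RR-*BCL2* (circles) and Igκ-*BCL2* (squares) over WT (horizontal axis) for the 42 genes (vertical axis, by role), in follicular cells (left) and non-dividing GC cells (right). Bars are 95% exact intervals for counting error, and dotted lines mark 1.5-fold. In follicular cells every point lies inside the lines, and in GC cells *Dnajb9* lies beyond them in both models.

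In non-dividing GC cells 1 gene was past the fold higher and 1 lower of 41 with at least 20 UMIs in 3′RR-*BCL2* (11.4% and 14.2% of all genes), and 2 were higher and 4 lower of 41 in Igκ-*BCL2* (13.3% and 12.5%). The medians were −0.07 and −0.18, against −0.05 and 0.0023 over all genes. The WT side held only 56 cells, which sets the width of all these intervals. *Dnajb9* had 259.9 UMIs per 1000000 in 3′RR-*BCL2* and 308 in the Igκ-*BCL2* library, against 134 in WT, log2 ratios of 0.95 (0.65 to 1.28) and 1.20 (0.89 to 1.53). It was found in 77.3% and 81.0% of GC cells of the models, against 64.3% in WT, at median depths of 8209, 8417 and 11015 UMIs. *Txndc11* was at 0.43 (0.05 to 0.86) in the 3′RR-*BCL2* library and 0.72 (0.32 to 1.16) in the Igκ-*BCL2* library, and *Dnajc3* at 0.53 and 0.50, but none of these 4 ratios stayed above 0 when each cell was thinned to 2000 UMIs.

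The lowest ratio in 3′RR-*BCL2* was that of *Derl3*, −1.23 (−2.01 to −0.32), which rested on 17 UMIs in WT, 10 of them in 1 cell, and which changed sign under other stage or cell limits. In Igκ-*BCL2* the lowest were *Hyou1* at −0.87 (−1.56 to −0.11), *Sdf2l1* at −0.87 (−1.55 to −0.13) and *Sel1l* at −0.80 (−1.37 to −0.19), each on 26 to 38 UMIs in WT. In dividing GC cells the medians were −0.01 in 3′RR-*BCL2* and −0.10 in the Igκ-*BCL2* library, against 0.068 and 0.034 over all genes, and under the study's upper limits they were 0.15 and 0.24. *Dnajb9* was again on the high side, at 0.76 (0.46 to 1.08) and 0.73 (0.29 to 1.15), with *Ddit3* at 0.89 (0.53 to 1.28) and 0.55 (−0.019 to 1.09), of which the last spans 0. *Edem2* was lowest in 3′RR-*BCL2*, at −1.002 (−1.70 to −0.31). In Igκ-*BCL2* the lowest with at least 50 UMIs was *Calr* at −0.60 (−0.85 to −0.37), and *Derl2* was highest at 0.88 (0.26 to 1.48).

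In plasma-marker cells, with 7 WT cells on the other side, 5 of 41 genes were past the fold higher and 4 lower in 3′RR-*BCL2* (31.8% and 11.2% of all genes), and 5 higher and 11 lower in Igκ-*BCL2* (19.2% and 21.1%). The medians were 0.05 and −0.32 per 1000000 of all UMIs, and −0.16 and −0.26 without immunoglobulin UMIs. Over all genes they were 0.29 and −0.065, and 0.088 and −0.0096 without immunoglobulin UMIs, so that the medians of the 42 lay below those of all genes on both scales. *Fkbp11* had 103 UMIs per 1000000 in 3′RR-*BCL2* and 122 in the Igκ-*BCL2* library, against 309 in WT, log2 ratios of −1.57 (−2.26 to −0.90) and −1.34 (−1.92 to −0.75). It was found in 5 of 14 and 10 of 24 plasma-marker cells of the models, against 7 of 7 in WT. Of its UMIs, 24 of 34 in 3′RR-*BCL2*, 17 of 60 in Igκ-*BCL2* and 12 of 45 in WT came from 1 cell. Without immunoglobulin UMIs and with each WT cell left out in turn, a check chosen after seeing the data, its ratio stayed between −1.86 and −1.66 in 3′RR-*BCL2* and between −1.37 and −1.17 in Igκ-*BCL2*.

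*Spcs3* was also lower in both models, at −0.84 and −0.94. *Creld2* was higher in both, at 1.04 (0.39 to 1.80) in the 3′RR-*BCL2* library and 0.87 (0.24 to 1.62) in the Igκ-*BCL2* library, with 104 and 138 UMIs against 22 in WT, as was *Sdf2l1* at 0.92 and 0.77. *Hspa5* was at 0.31 (0.09 to 0.55) and 0.58 (0.37 to 0.81), and the 3′RR-*BCL2* value was −0.10 at its lowest without immunoglobulin UMIs and with 1 WT cell left out. In Igκ-*BCL2* all 12 translocon, signal peptidase and cargo genes were below 0 (median −0.57), and 8 of 11 chaperones were above 0 (median 0.43), while 1178 of 2558 genes were above 0. In 3′RR-*BCL2* the translocon median was −0.05 and 8 of 11 chaperones were above 0 (median 0.31), while 1414 of 2186 genes were above 0 with a median of 0.29, so that the chaperone median was close to that of all genes. The plasma-marker cells of the models held more GC marker RNA and fewer plasma cell marker UMIs than those of WT, as given above, and the part of this in the ratios was not tested.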

How the data were processed

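Splenic B cells were captured with the Chromium 3′ v3.1 kit, and the deposited tables hold whole-number UMI counts for each gene and barcode, which the authors made with Cell Ranger 6.1.1 per the labels' processing notes, which name the builds mm10 and hg38. These files precede the study's own cell filters. The 42 genes and the lists around them were chosen with earlier results of these data known, and the marker thresholds of the stages were set after the distributions of the markers were seen. All 42 genes could be named. Values per library were to be given for the genes with the largest and smallest plasma-marker change in each role, up to 3 called genes a direction in the other contrasts, and the 3 highest and 3 lowest genotype ratios with at least 50 UMIs in follicular and GC cells. Of the lists around them, *Xbp1*, *Ern1*, *Eif2ak3*, *Atf6* and up to 4 called genes a list could be named, and other values per library were chosen after they were seen. *Ddit3* has a second identifier, which held 0 UMIs.

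Libraries held 45539172 UMIs in 3′RR-*BCL2*, 37433924 in Igκ-*BCL2* and 62777659 in WT. Cells with at least 2 UMIs of T cell or macrophage markers, or at least 2 markers of plasmacytoid dendritic or NK cells, were left out, and no doublet caller was run. UMIs were summed per library and stage. Stages were compared with edgeR 4.0.16 in R 4.3.3 (TMM factors, filterByExpr, quasi-likelihood test, library as a block, all 8 stages in 1 fit), at an adjusted p under 0.05. The block takes up differences between libraries. These p-values set a stage difference against the spread of stage differences between 3 libraries of different genotype. That spread was estimated over all 8 stages and not from the compared stages alone. Each SE is the size of the log2 fold change divided by the root of the test's F statistic. Alternatives were DESeq2 1.42.0 size factors or its Wald test, no filter, no immunoglobulin genes, 1 more marker per stage, the study's upper limits (4500 genes, 20000 UMIs, at least 10% ribosomal protein UMIs), only the compared stages, a minimum of 50 UMIs and thinning to 2000 UMIs for genotype ratios, and leaving out each library. Genotypes were compared for genes with at least 20 UMIs in both libraries together, with 0.5 added to counts. The fit was also run on simulated counts with 1 fixed spread and, apart from genes changed on purpose, 1 profile for all libraries and stages. They do not hold the differences among plasma-marker cells described above, and no result rests on them. Bulk RNA, repertoire and cytometry data of the study were not analysed here.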

Additional observations from a re-analysis of the deposited data

Results flagged for a closer look

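*Sdf2l1*, the partner of the cochaperone ERdj3, differed from WT in opposite directions in 2 stages of the Igκ-*BCL2* library. Its log2 ratio over WT was −0.87 (−1.55 to −0.13) in non-dividing GC cells, on 53 UMIs against 27 in WT, and 0.77 (0.17 to 1.47) in plasma-marker cells, on 146 UMIs against 25. Both intervals, which cover counting error only, lie on 1 side of 0. In the 3′RR-*BCL2* library the ratios had the same signs, at −0.48 (−1.06 to 0.20) in non-dividing GC cells and 0.92 (0.30 to 1.63) in plasma-marker cells. Both models are set against the same WT counts of 27 and 25 UMIs, and the part of WT was not tested. The difference between the stages was not tested, since each genotype has 1 library.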

How the results depend on the processing

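The count of 41 of 42 genes in plasma-marker cells stayed between 39 and 41 under every alternative run, and those of activated and non-dividing GC cells also stayed within 1.5 times. With 1 library left out the counts were 39 to 41 for plasma-marker cells, 11 to 13 for non-dividing GC cells, 15 to 20 for dividing against non-dividing GC cells (15 without 3′RR-*BCL2*), 16 to 19 for activated cells, 4 to 6 for MZ cells (4 without 3′RR-*BCL2* and 5 without WT), 1 for transitional cells and 0 to 1 for IFN-activated cells. Under the study's upper limits the 25 calls of dividing GC cells became 8. Fitting only the compared stages gave 15 calls in MZ cells in place of 8, 4 in transitional cells in place of 2 and 2 in IFN-activated cells in place of 1, while 1 more marker left 1 transitional call and the DESeq2 Wald test 0 IFN-activated calls.

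The median genotype ratios moved with the processing. Thinned to 2000 UMIs they were 0.072 for 3′RR-*BCL2* follicular, −0.088 for Igκ-*BCL2* non-dividing GC, 0.18 for 3′RR-*BCL2* dividing GC, −0.31 for 3′RR-*BCL2* plasma-marker and −0.67 for Igκ-*BCL2* plasma-marker cells. Under the study's upper limits they were 0.15 and 0.24 in dividing GC cells and −0.63 and −0.47 in plasma-marker cells of 3′RR-*BCL2* and Igκ-*BCL2*, and without immunoglobulin UMIs −0.16 in 3′RR-*BCL2* plasma-marker cells.

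Single genes whose call or interval excluded 0 changed sign as follows. *Dnajb9* in plasma-marker against follicular cells was −0.13 under the study's upper limits (edgeR adjusted p = 0.801). *Derl3* in 3′RR-*BCL2* non-dividing GC cells was 0.26 with 1 more marker and 0.93 under the upper limits. After thinning, *Txndc11* and *Dnajc3* in the same cells were −0.084 and −0.20, and *Txndc11* in Igκ-*BCL2* was −0.0079. *Dnajc3* in Igκ-*BCL2*, whose interval had spanned 0, was −0.15. *Canx* in Igκ-*BCL2* dividing GC cells was 0.086 under the upper limits, and *Hspa5* in 3′RR-*BCL2* plasma-marker cells was −0.10 without immunoglobulin UMIs and 1 WT cell. The cause of these changes was not tested. For single genes between stages, 352 combinations of gene and setting kept their side of the threshold and 27 calls were lost. The stage comparisons held library as a block. No paired analysis was possible because each genotype has 1 library, as far as the genotype ratios go. The 7 WT plasma-marker cells and 56 WT non-dividing GC cells limit every genotype ratio in those stages.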
